A study of Mus musculus with 18 samples.

Results

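The MHC class II presentation genes studied here encode the peptide-binding chains, the chaperones, the regulator and the protease by which a cell displays fragments of taken-up proteins to CD4+ T cells. They were listed by name, as 10 genes, and 9 of them had a named probe set among the 19505 genes measured. These were H2-Aa, H2-Ab1, H2-Eb1, H2-DMa, H2-DMb1, H2-Oa, H2-Ob, Ciita and Ctss, each with 1 probe set, and Cd74 was not analysed here. Transcript signals came from bone marrow preparations labelled as mesenchymal cells (BM-MSCs), 1 array for each of 18 mice. The groups were 5 NeuT mice of 12 weeks at an early stage of breast tumorigenesis, 5 control BALB/c mice of that age, 4 NeuT mice of 24 weeks at a late stage, and 4 BALB/c mice of that age. NeuT mice express an activated rat Erbb2 oncogene from a mammary tumour virus promoter, and the labels describe those of both ages as carrying tumours, so transgene and tumour cannot be told apart. Cells were taken from femurs and tibias by bead depletion of CD45, Ter119, CD11b, CD11c, CD3, Gr1 and B220, so the antigens removed include those of B cells and dendritic cells, and flow cytometry for CD45, CD29 and CD44 followed.

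Classical class II molecules pair an alpha with a beta chain (H2-Aa with H2-Ab1, and the E alpha chain with H2-Eb1) and travel to the endosome with the invariant chain, which cathepsin S, the product of Ctss, trims to a short remnant in the groove. H2-DM, a dimer of H2-DMa and an H2-DMb chain, releases that remnant and loads peptide, while H2-O, a dimer of H2-Oa and H2-Ob found mainly in B cells, restrains H2-DM. Ciita encodes the co-activator that switches on the classical, DM and invariant chain genes. Dendritic cells and B cells express classical class II constitutively, and macrophages and stromal cells raise it after interferon-gamma.

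Class II genes share an upstream module in which an X box, bound by the RFX factors, precedes a Y box, bound by NF-Y, and CIITA docks on both. The RefSeq table (GRCm38.p6) held a promoter window for 7 of the members analysed, H2-Ab1 and Ciita not among them. Cd74 was left out of the search. The 250 bases before each annotated start were searched on both strands for AGNNAC, taken here for the X box, followed after 8 to 30 bases by ATTGG, taken for the Y box. The letters of the pair do not overlap. The pair was present in 4 of 8 member windows (H2-DMa has 2), against 3.67% of the 32851 windows in the table, and ATTGG or its complement alone in 6 of 8, against 33.8%. Both strings stand for boxes already known from class II genes, so their share among members is not a test. The stretches are printed 5′ to 3′ to show where these letters lie. Capitals mark AGNNAC and ATTGG, or ATTGG alone for H2-Aa and H2-DMb2, the near copy of H2-DMb1.
H2-Aa, chr17:34287852-34287916 (- strand): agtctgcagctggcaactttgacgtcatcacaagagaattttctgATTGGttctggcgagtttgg
H2-Eb1, chr17:34305760-34305827 (+ strand): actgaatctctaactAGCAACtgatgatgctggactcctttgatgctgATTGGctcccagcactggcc
H2-DMb1, chr17:34153081-34153149 (+ strand): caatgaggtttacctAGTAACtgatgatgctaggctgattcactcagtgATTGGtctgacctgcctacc
H2-DMb2, chr17:34145114-34145178 (+ strand): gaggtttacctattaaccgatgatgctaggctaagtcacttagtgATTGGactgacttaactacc
H2-Oa, chr17:34092287-34092355 (+ strand): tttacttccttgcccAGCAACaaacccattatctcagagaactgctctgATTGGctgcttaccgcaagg
H2-Ob, chr17:34238802-34238867 (+ strand): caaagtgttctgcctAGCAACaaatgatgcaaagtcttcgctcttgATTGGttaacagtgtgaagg
No such pair was found in the windows of H2-Aa, H2-DMa and Ctss, which says only that these letters are not in the 250 bases searched. The reference is C57BL/6J, and BALB/c mice carry another MHC haplotype, so bases may differ in the mice studied and mismatched probes may lower signals. Both mouse models share the BALB/c background.

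The signals are log2 values after the authors' RMA, and values of different probe sets are not compared. Array medians ran from 8.428 to 8.563, the medians of BALB/c replicates 1 and 3 of 24 weeks. The other arrays lay between 8.496 and 8.518. The negative control probe sets had a median of 7.346 and a 95th percentile of 10.46. All members lay above the control median in every array, while H2-Ab1, H2-Oa, H2-Ob and Ciita lay under the 95th percentile in every array. The median signal over all genes, 8.504, lay under that percentile too. The pan-leukocyte gene Ptprc (CD45, a depleted antigen) averaged 11.96 ± 0.18 (SD, n = 5) in NeuT and 12.26 ± 0.13 (n = 5) in BALB/c mice of 12 weeks. The niche gene Cxcl12 averaged 9.18 ± 0.08 and 9.36 ± 0.06 in the same NeuT and BALB/c groups. Blood-cell transcripts were thus present, and which cells gave the class II signals is not known. In such bulk samples fewer cells of a type and less RNA per cell cannot be told apart. The lowest median correlations with other arrays, taken across genes, were those of NeuT replicate 4 at 12 weeks (0.9876), NeuT replicate 1 at 24 weeks (0.9911) and BALB/c replicate 3 at 24 weeks (0.9877).

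**Figure D1:**
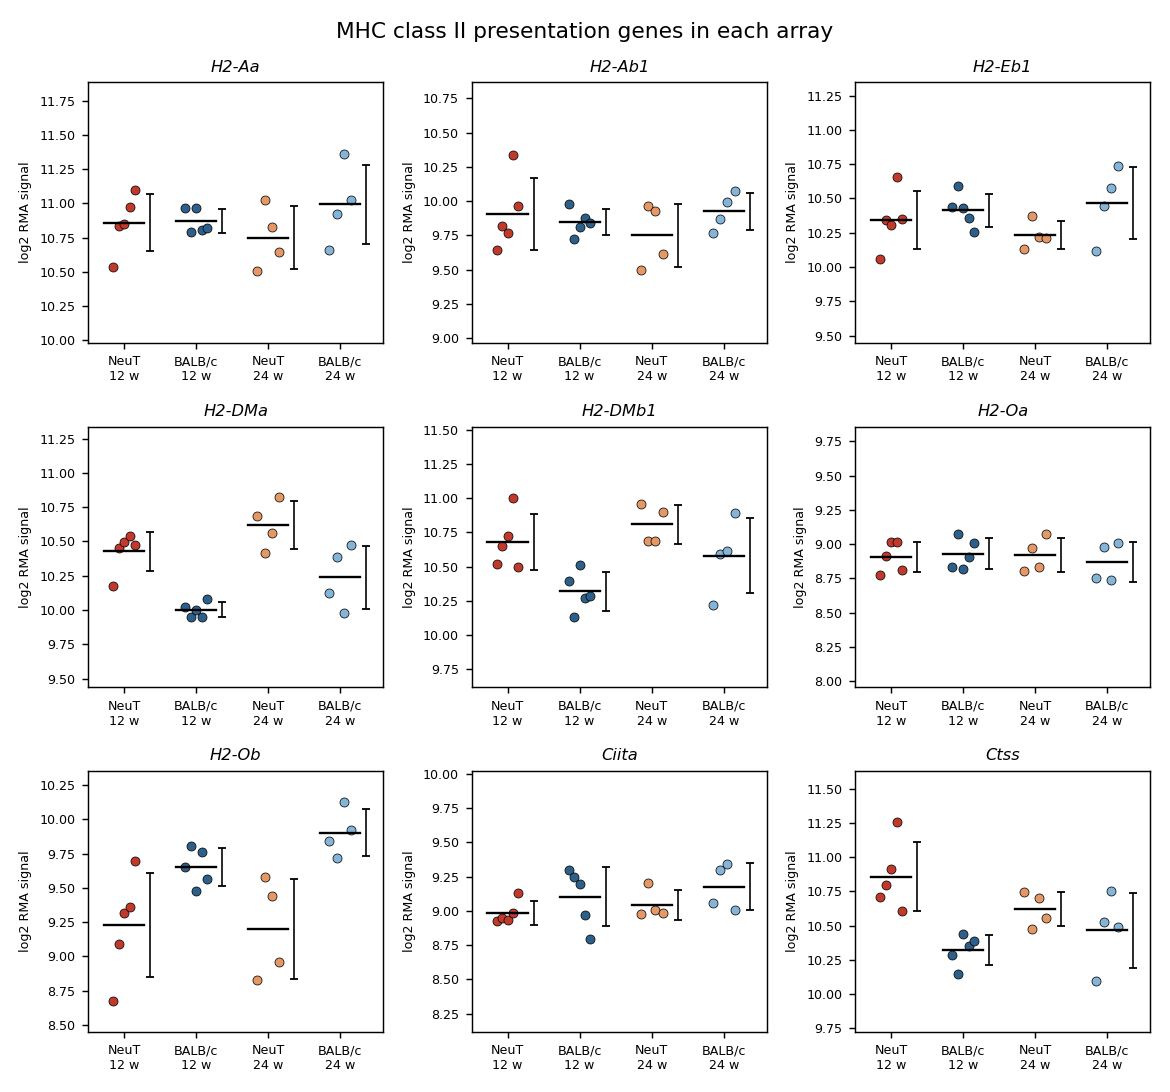
Log2 RMA signal of each of 9 MHC class II presentation genes in every array (points), with group means (bars) and SD (whiskers beside the points), for NeuT and BALB/c mice of 12 weeks (w, n = 5 each) and 24 weeks (n = 4 each); each panel spans the same height. At 12 weeks the NeuT points of H2-DMa and Ctss lie above all BALB/c points, and at 24 weeks those of H2-Ob lie below.

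The classical chains did not pass the test at either age. H2-Aa, the A alpha chain gene, read 10.54, 10.83, 10.85, 10.98 and 11.09 in NeuT mice of 12 weeks, against 10.97, 10.79, 10.97, 10.81 and 10.82 in BALB/c mice. The NeuT values lay on both sides of the BALB/c values. The difference was -0.01 on the log2 scale, with a 95% interval of -0.25 to 0.23 (limma, adjusted p = 0.965). H2-Ab1, its partner, differed by 0.06 (interval -0.17 to 0.29, adjusted p = 0.786), with 9.91 ± 0.26 (SD) in NeuT and 9.85 ± 0.09 in BALB/c mice. H2-Eb1, the E beta chain gene, differed by -0.07 (interval -0.29 to 0.15, adjusted p = 0.735), with 10.34 ± 0.21 in NeuT and 10.41 ± 0.12 in BALB/c mice. The 12-week intervals of these chains all include 0.

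At 24 weeks the differences of the classical chains were negative and still within the spread between mice. Those of H2-Aa and H2-Ab1 each turned positive in 1 of 12 other settings of the fit (0.05 and 0.10). H2-Aa read 10.50, 11.03, 10.83 and 10.64 in NeuT mice, against 10.66, 10.92, 11.36 and 11.02 in BALB/c mice, and the groups overlapped. Its log2 difference was -0.24 (interval -0.51 to 0.03, adjusted p = 0.439). H2-Eb1 gave -0.23 (interval -0.48 to 0.01, adjusted p = 0.405), and H2-Ab1 -0.17 (interval -0.43 to 0.08, adjusted p = 0.574). The NeuT means were 10.23 ± 0.10 and 9.75 ± 0.23 (SD, n = 4), and the BALB/c means 10.47 ± 0.26 and 9.93 ± 0.13. H2-Eb2, a further beta chain gene outside the list of members, had values of -0.07 at 12 weeks and -0.15 at 24 weeks (adjusted p = 0.721 and 0.578).

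Of the peptide-loading genes, H2-DMa (Entrez gene 14998), the alpha chain of the DM chaperone, rose in NeuT mice of 12 weeks. It read 10.18, 10.45, 10.49, 10.54 and 10.47 in NeuT mice, against 10.02, 9.95, 10.001, 9.95 and 10.08 in BALB/c mice. Every NeuT array was higher than every BALB/c array, with NeuT replicate 1 the closest to them. The log2 difference was 0.43 ± 0.094 (SE, adjusted p = 0.0142). Of these signals 3 of 5 in NeuT mice and 0 of 5 in BALB/c mice lay above the 95th percentile of negative controls, so no fold is given. At 24 weeks H2-DMa read 10.68, 10.41, 10.56 and 10.82 in NeuT mice, against 10.12, 10.39, 9.98 and 10.47 in BALB/c mice. The groups overlapped, NeuT replicate 2 lying below BALB/c replicate 4. The log2 difference of 0.38 ± 0.11 did not pass (adjusted p = 0.0756). It passed in 2 of 8 fits without 1 array, those without NeuT replicate 2 and without BALB/c replicate 4, and over the 8 fits the adjusted p ran from 0.0238 to 0.325. The group means of H2-DMa ran, from high to low, 10.62 in NeuT mice of 24 weeks, 10.43 in NeuT mice of 12 weeks, 10.24 in BALB/c mice of 24 weeks and 10.001 in BALB/c mice of 12 weeks. Neighbours in that order of the same mouse model did not differ past the threshold, and the middle pair was not tested.

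The DM beta chain gene H2-DMb1 had a positive difference at both ages that did not pass. At 24 weeks H2-DMb1 turned negative in 1 of 12 other settings of the fit (-0.02). It averaged 10.68 ± 0.20 (SD) in NeuT and 10.32 ± 0.14 in BALB/c mice of 12 weeks, a log2 difference of 0.36 (adjusted p = 0.0669), and 10.81 ± 0.14 and 10.58 ± 0.28 at 24 weeks, a difference of 0.23 (adjusted p = 0.442). At 12 weeks NeuT values of 10.50 to 11.00 overlapped BALB/c values of 10.14 to 10.51 by a small margin. At 12 weeks the gene passed in 1 of 10 fits without 1 array, that without NeuT replicate 5 (adjusted p = 0.0374), and without NeuT replicate 4 the difference was 0.28 (adjusted p = 0.181). It passed in the fit on only the groups compared (adjusted p = 0.0444) and with array weights (adjusted p = 0.0298). H2-DMb2, the near-identical second beta chain gene, had values of 0.03 and 0.01 at 12 and 24 weeks (adjusted p = 0.909 and 0.981). How far the probe sets of both copies read each other's transcript is not known here.

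Cathepsin S, the endosomal protease encoded by Ctss (Entrez gene 13040), gave the largest positive difference among the members at 12 weeks. Ctss read 10.71, 10.79, 10.92, 11.26 and 10.61 in NeuT mice, against 10.29, 10.15, 10.44, 10.35 and 10.39 in BALB/c mice. The groups did not overlap, and NeuT replicate 4, an array of low correlation with the rest, was the highest. Ctss rose by a log2 difference of 0.53 ± 0.11 (SE, adjusted p = 0.0120). All 5 NeuT arrays and 0 of 5 BALB/c arrays lay above the 95th percentile of negative controls. At 24 weeks it read 10.75, 10.48, 10.70 and 10.56 in NeuT mice, against 10.10, 10.53, 10.75 and 10.49 in BALB/c mice. Apart from BALB/c replicate 1 these values were interleaved, and the difference of 0.15 (interval -0.11 to 0.42) did not pass (adjusted p = 0.639). The effect at 24 weeks minus that at 12 weeks was -0.38 ± 0.17 (unadjusted p = 0.0366, adjusted p = 0.750), so a change of the Ctss effect with age did not pass over all genes.

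H2-Ob (Entrez gene 15002), the beta chain of the DM inhibitor H2-O, fell in NeuT mice of 24 weeks. It read 8.82, 9.58, 9.44 and 8.96 in NeuT mice, against 9.84, 9.72, 10.12 and 9.92 in BALB/c mice. Every NeuT array lay below every BALB/c array, and NeuT replicates 1 and 4 were the lowest. The log2 difference was -0.70 ± 0.17 (SE, adjusted p = 0.0411), with every array of both groups under the 95th percentile of negative controls. The call is a marginal one: it ended when any 1 of 6 of the 8 arrays was left out (each BALB/c array and NeuT replicates 1 and 4), with adjusted p from 0.0511 to 0.228. It ended too after a further quantile normalisation (-0.73, adjusted p = 0.054) and without the 3 arrays of lowest correlation (-0.50, adjusted p = 0.381).

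At 12 weeks H2-Ob read 8.68, 9.09, 9.32, 9.36 and 9.70 in NeuT mice, against 9.65, 9.81, 9.47, 9.76 and 9.56 in BALB/c mice. Of the NeuT arrays 4 lay below all BALB/c arrays and replicate 5 did not. The difference of -0.42 ± 0.15 did not pass (adjusted p = 0.110). It passed in 1 of 10 fits without 1 array, that without NeuT replicate 5 (-0.54, adjusted p = 0.0267), and was -0.29 without NeuT replicate 1 (adjusted p = 0.249). The test of the difference between the ages gave -0.27 (adjusted p = 0.895). H2-Oa, the alpha chain of the same dimer, differed by -0.02 at 12 weeks and 0.05 at 24 weeks (adjusted p = 0.892 and 0.853), with intervals of -0.19 to 0.14 and -0.14 to 0.24. H2-Oa ranged from 8.74 to 9.08 over all groups, and Ciita, the regulator gene, had values of -0.12 and -0.13 at 12 and 24 weeks (adjusted p = 0.494 and 0.614). Ciita averaged 8.98 ± 0.09 in NeuT and 9.10 ± 0.21 in BALB/c mice of 12 weeks, and 9.04 ± 0.11 and 9.18 ± 0.17 at 24 weeks.

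**Figure D2:**
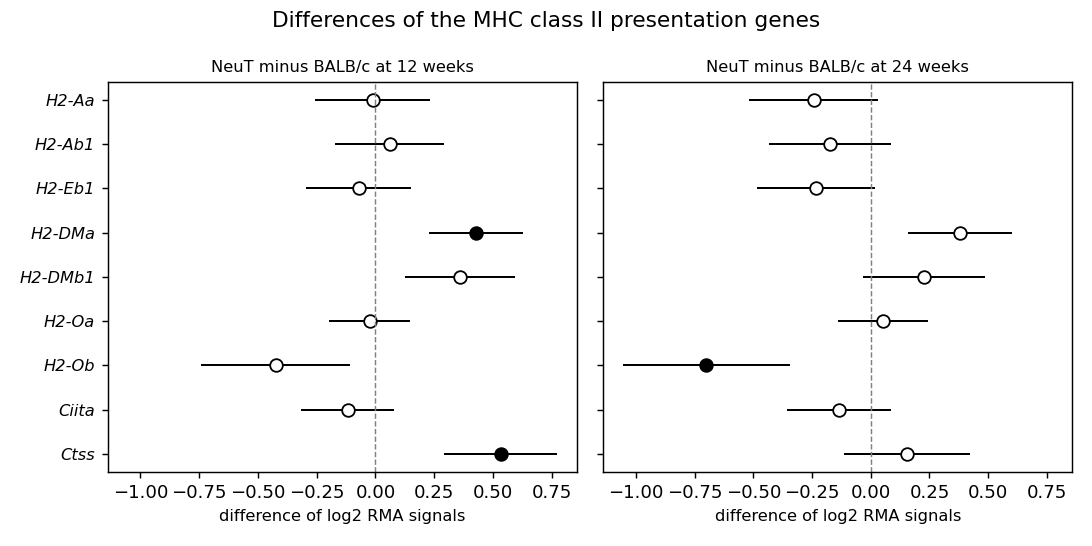
Difference of log2 RMA signals, NeuT minus BALB/c, at 12 weeks (left) and 24 weeks (right) for each member, with 95% intervals from the limma fit (lines); filled points have an adjusted p under 0.05. H2-DMa (0.43) and Ctss (0.53) are filled at 12 weeks and H2-Ob (-0.70) at 24 weeks, while the classical chains lie near 0 at 12 weeks.

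In all, 2 of 9 members passed at 12 weeks, both higher in NeuT mice, against 3.84% of all 19505 genes (3.15% higher and 0.687% lower). The median log2 difference was -0.01 over the members and -0.03 over all genes. At 24 weeks 1 of 9 passed, lower in NeuT mice, against 1.40% of all genes (1.18% higher and 0.220% lower), with medians of -0.13 over the members and -0.00014 over all genes. The groups did not overlap for 2 members at 12 weeks and 1 at 24 weeks, against 7.46% and 6.72% of all genes. For the difference of effects between ages no member passed (0.0103% of all genes did), and 1, Ctss, had an unadjusted p under 0.05. In the fits between ages (limma) no member passed, in NeuT mice (0.0359% of all genes) with none at an unadjusted p under 0.05, or in BALB/c mice (0.579% of all genes) with 2. Those were H2-DMa, 0.24 higher at 24 weeks, and H2-DMb1, 0.26 higher (adjusted p = 0.245 and 0.281). Age cannot be told apart from any processing batch of the 2 ages.

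Genes that act beside the members were read from companion lists. For comparison, 3.15% of all genes rose and 0.687% fell at 12 weeks, and 1.18% rose and 0.220% fell at 24 weeks. Of 12 processing and lysosome genes 3 rose at 12 weeks and none fell, with a list median of 0.16 against -0.03 over all genes. They were the cathepsin genes Ctsc (0.57, adjusted p = 0.00687), Ctsh (0.48, adjusted p = 0.00577) and Ctsz (0.40, adjusted p = 0.0249), which encode lysosomal peptidases like Ctss. At 24 weeks none of the 12 passed, and Lamp2 and Ctsh had values of 0.24 and 0.33 (adjusted p = 0.106 and 0.113). In RefSeq's annotation Psmb9, Tap1, Psmb8 and Tap2 lie between H2-DMb1 and H2-Ob. In that list of class I genes and locus neighbours 2 of 8 rose at 12 weeks, the immunoproteasome subunit genes Psmb8 (0.42, adjusted p = 0.00558) and Psmb9 (0.42, adjusted p = 0.0151), and none at 24 weeks, where Tap1 and Psmb9 had 0.30 and 0.25 (adjusted p = 0.186 and 0.281). The list medians were 0.13 and 0.09.

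No gene that controls class II transcription passed, out of 12 at either age, with list medians of 0.0056 and -0.0085. Irf4, a lymphoid transcription factor gene, and Nfyc, a subunit of the Y box factor NF-Y, had values of -0.55 and -0.17 at 12 weeks (adjusted p = 0.165 and 0.219). At 24 weeks Irf4 and the myeloid factor gene Spi1 had -0.95 and 0.34 (adjusted p = 0.0612 and 0.157). None of 12 interferon-gamma pathway genes passed at either age, with medians of -0.05 and -0.07. At 12 weeks the guanylate-binding protein gene Gbp3 had -0.38 and Socs1, the feedback inhibitor of the pathway, -0.21 (adjusted p = 0.0753 and 0.107). At 24 weeks Socs1 had -0.31 and the receptor gene Ifngr1 0.27 (adjusted p = 0.0682 and 0.124). None of 8 genes of surface turnover and co-stimulation passed, with medians of 0.07 and 0.12. Marchf1, which encodes a ubiquitin ligase that removes class II from the surface, and its relative Marchf8 had 0.30 and -0.31 at 12 weeks (adjusted p = 0.0736 and 0.219). The co-stimulatory genes Cd40 and Cd80 had -0.31 and 0.36 at 24 weeks (adjusted p = 0.143 and 0.161).

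Markers of cells that carry class II were read beside the members. Of 9 B-cell precursor genes none passed at 12 weeks, with 8 of 9 negative and a median of -0.53, and none at 24 weeks, with 9 of 9 negative and a median of -0.71. Cd79b, a chain of the B-cell receptor complex, had -0.65 at 12 weeks and -0.87 at 24 weeks (adjusted p = 0.1 and 0.0862), and the B-cell factor gene Pax5 -0.75 and -1.01 (adjusted p = 0.111 and 0.0993). The list mean ran from 9.47 to 10.92 in NeuT and from 10.73 to 10.97 in BALB/c mice of 12 weeks, and from 9.88 to 10.92 and from 10.91 to 11.11 at 24 weeks. Of 7 mature B-cell genes Spib alone fell at 24 weeks (-1.24, adjusted p = 0.0492). None passed at 12 weeks, where Spib and Blnk had -0.83 and -0.56 (adjusted p = 0.0910 and 0.192), and the list medians were -0.11 and -0.46. The array with the lowest H2-Ob signal at each age, NeuT replicate 1, had the lowest B-cell precursor mean too, and at 24 weeks NeuT replicate 4, with the next lowest H2-Ob signal, had a mean of 9.95. With the mean of the 16 B-cell genes as a covariate the difference of H2-Ob was -0.12 at 12 weeks and -0.21 at 24 weeks (adjusted p = 0.483 and 0.732). In that fit H2-DMa and Ctss still passed at 12 weeks (0.44 and 0.57, adjusted p = 0.0490 and 0.0318). The covariate holds Blnk, Ebf1, Pax5 and Spib, the genes most like H2-Ob over the arrays, so a smaller H2-Ob difference under it is not a test. At 24 weeks the precursor means of the mouse models hardly overlapped. The mature B-cell means did not overlap, reaching 9.57 in NeuT mice and starting at 9.58 in BALB/c mice. The fit can thus hardly tell B-cell content from mouse model at 24 weeks. The part of B cells in the H2-Ob values was not tested.

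The monocyte and macrophage list had 3 of 9 genes higher and 1 lower at 12 weeks, with a median of 0.21. Ccr2, the receptor of inflammatory monocytes, differed by 1.25 in log2 signal (adjusted p = 9.02e-06), Fcgr1 by 0.50 (adjusted p = 0.00742) and Csf1r by 0.46 (adjusted p = 0.0321). The complement gene C1qc fell by 0.33 (adjusted p = 0.0179). The list mean was 8.99 to 9.17 in NeuT mice, against 8.75 to 8.93 in BALB/c mice, with no overlap. A fit with that mean as a covariate was chosen after seeing the data. In it the 12-week differences of H2-DMa and Ctss were 0.29 and 0.17 (adjusted p = 0.470 and 0.635). H2-Ob had -0.13 at 12 weeks, near the -0.12 under the B-cell covariate, and -0.49 at 24 weeks (adjusted p = 0.817 and 0.607). Because the list means of NeuT and BALB/c mice did not overlap at 12 weeks, the fit cannot tell monocyte content from mouse model there. At 24 weeks 1 of the 9 rose, Ly6c2 (0.44, adjusted p = 0.0293), with list means of 8.96 to 9.29 in NeuT and 8.82 to 9.06 in BALB/c mice.

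None of 10 dendritic cell genes passed at either age, with medians of 0.13 and 0.14. Flt3, the receptor of their growth factor, had 0.31 and the transcription factor gene Zbtb46 -0.15 at 12 weeks (adjusted p = 0.0753 and 0.275). At 24 weeks Ccr9 and Clec10a had -0.55 and 0.22 (adjusted p = 0.274 and 0.280). Itgax, which encodes the depleted antigen CD11c, averaged at 12 weeks 7.67 ± 0.17 in NeuT and 7.55 ± 0.08 in BALB/c mice. With the dendritic cell mean as a covariate H2-DMa (0.39, adjusted p = 0.0297) and Ctss (0.46, adjusted p = 0.0214) passed at 12 weeks and H2-Ob (-0.74, adjusted p = 0.0337) at 24 weeks.

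Lists of other cells were read too. The part of any cell type, those above included, in the class II values was not tested. Neutrophil genes rose in 5 of 12 cases at each age, against 3.15% and 1.18% of all genes, with list medians of 0.61 and 0.82. At 12 weeks the granule genes Mmp8 (1.81, adjusted p = 0.00976), Ltf (1.52, adjusted p = 0.0343), Lcn2 (1.41, adjusted p = 0.0375) and Mmp9 (1.02, adjusted p = 0.0183) differed most. At 24 weeks these were Ltf (1.82, adjusted p = 0.0427), Mmp9 (1.07, adjusted p = 0.0430), Ngp (0.59, adjusted p = 0.0427) and the chemokine receptor gene Cxcr2 (0.54, adjusted p = 0.0408).

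Of 8 T and NK cell genes 1 rose at 12 weeks, the granule protein gene Nkg7 (0.34, adjusted p = 0.0282). At 24 weeks Nkg7 rose (0.40, adjusted p = 0.0398), while the granzyme gene Gzma (-1.33, adjusted p = 0.00264), Cd2 (-1.03, adjusted p = 0.0233) and the T-cell receptor complex gene Cd3e (-0.58, adjusted p = 0.0354) fell. The list medians were 0.04 and -0.54. Of 11 stromal genes none passed at 12 weeks, where Cxcl12 alone had an unadjusted p under 0.05 (-0.18, adjusted p = 0.139) and Vcam1 had 0.17 (adjusted p = 0.253). At 24 weeks Igfbp5 (0.69, adjusted p = 0.0492) and Vcam1 (0.47, adjusted p = 0.0233) rose, and the medians were -0.01 and 0.23. The endothelial gene Cdh5 fell at 12 weeks (-0.54, adjusted p = 0.0150), as 1 of 6 on its list, and at 24 weeks Kdr and Vwf had 0.45 and 0.17 (adjusted p = 0.143 and 0.498), with none past the threshold. None of 4 erythroid genes passed at either age. Epor and Klf1 had -0.25 and -0.20 at 12 weeks (adjusted p = 0.237 and 0.415) and -0.30 and -0.28 at 24 weeks (adjusted p = 0.320 and 0.440).

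**Figure D3:**
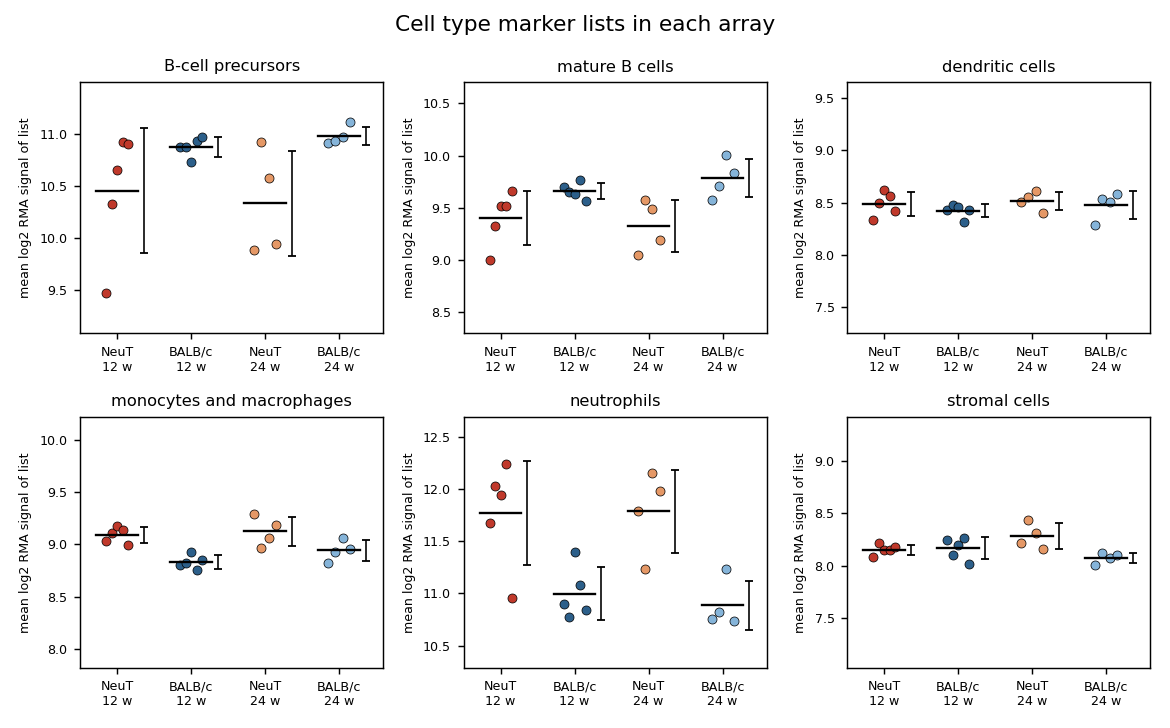
Mean log2 RMA signal of 6 cell type marker lists in every array (points), with group means (bars) and SD (whiskers), for NeuT and BALB/c mice of 12 and 24 weeks (w); each panel spans the same height. B-cell precursor means spread down to 9.47 in NeuT mice while those of BALB/c mice stay between 10.73 and 11.11, and monocyte and macrophage means of NeuT mice lie above those of BALB/c mice at 12 weeks.

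After each group's mean was subtracted, H2-Aa, H2-Ab1 and H2-Eb1 correlated with each other over the 18 arrays (Pearson r of 0.67 to 0.71), and H2-Ob correlated with H2-Aa (0.76) and H2-Ab1 (0.66). H2-Ob and H2-DMa had an r of -0.13, while H2-DMb1 and Ctss had 0.77. H2-DMa with H2-Oa (0.61), H2-Eb1 with H2-DMb1 (0.61), H2-DMa with H2-DMb1 (0.58) and H2-Aa with Ciita (0.54) lay between. These are descriptions: the arrays share a normalisation and each point holds a mixture of cells. The genes outside the list most like the mean of the 3 classical chains were Rnf103 (0.91), Cd72 (0.91), Sbk1 (0.91), H2az2 (0.90), Foxo1 (0.89) and Fcmr (0.89), of which Cd72 and Fcmr are known from B cells. Those most opposed were Ergic1 (-0.89), Tpi1 (-0.88) and F13a1 (-0.86).

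Single members were compared with all other genes in the same way, a step chosen after seeing the data. The genes are named for the members that passed at either age. For the other members the highest r ran from 0.80 (Ciita with Col18a1) to 0.94 (H2-Ab1 with Tspan13). High values are thus not particular to the members that passed. The genes most like H2-Ob were Blnk (0.97), Ebf1 (0.94), Pax5 (0.94) and Spib (0.93), which encode a B-cell adaptor and B-cell transcription factors. Those most like Ctss were Tmsb4x (0.91), Dynlt1a (0.91), Lyz2 (0.90), the lysozyme gene of myeloid cells, and Gpr183 (0.90). Those most like H2-DMa were Aim2 (0.89), Zfp119a (0.88), Phactr2 (0.86) and Nckap1l (0.86).

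**Figure D4:**
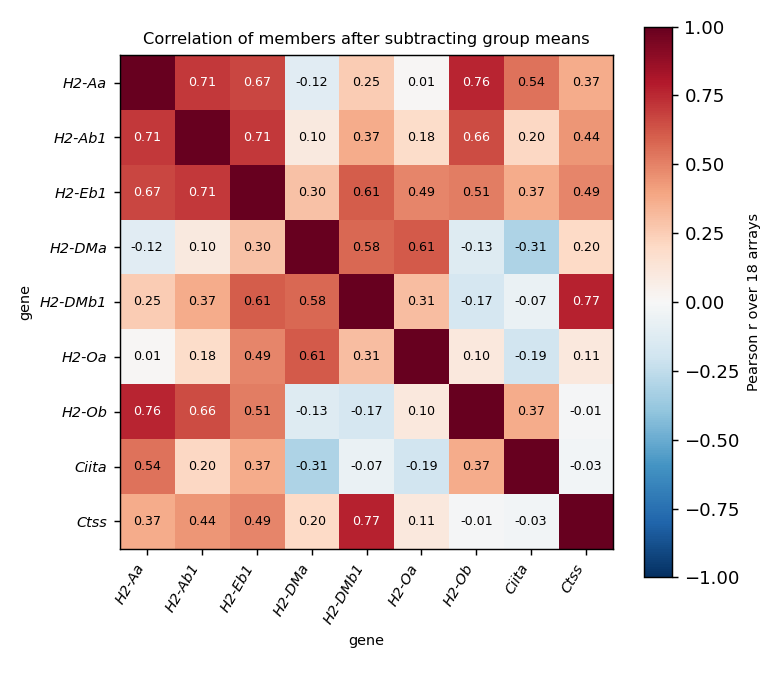
Pearson correlation between members over the 18 arrays after each group's mean was subtracted (colour scale from -1 to 1, values printed in the cells). Pairs among H2-Aa, H2-Ab1, H2-Eb1 and H2-Ob have r of 0.51 to 0.76, other pairs such as H2-DMa with H2-Oa (0.61) and H2-Eb1 with H2-DMb1 (0.61) lie in that range too, and H2-Ob has low values with H2-DMa (-0.13), H2-DMb1 (-0.17) and Ctss (-0.01).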

How the data were processed

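Total RNA of 18 preparations was measured on 1 array per mouse. The deposited values are log2 signals per probe set, made by the authors with RMA and the Transcriptome Analysis Console, per the submitters' processing notes; tool versions and build: not given in the sources used here. Of 29129 probe sets 19572 had 1 gene symbol, and 2634 unnamed transcript clusters and all control probe sets were left out. Where a gene had several probe sets (55 genes), the one with the highest mean was kept, giving 19505 genes with no filter on dim ones.

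A mean per group was fitted with limma 3.58.1 in R 4.3.3 (14 residual and 8.68 prior degrees of freedom). Tests were two-sided, with p-values adjusted by Benjamini-Hochberg over all genes and a threshold of 0.05. Members, 15 companion lists (130 of 140 genes measured) and the naming rule were chosen with earlier results of these data known. All members are named; of each companion list and age, the called genes (at most 4, the largest differences first), or else the 2 with the smallest p; for likeness to the classical mean, the 6 highest and 3 lowest correlations. For single members the 4 highest were taken, a step added after seeing the data, and they are named for the called members. The classical mean lacks Cd74. The fit was tested on simulated data. Alternatives were other normalisations, filters, variance models, array weights, marker covariates and leaving out arrays. The number of arrays limits the precision. Figures used matplotlib 3.10.9.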

Additional observations from a re-analysis of the deposited data

Results flagged for a closer look

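In 3 of 36 combinations of a member and a group, 1 mouse stood far from the others of its group. Chance flags about 1 in 20 combinations, so a few such flags arise without a cause. The combinations also share the same arrays. H2-DMa in NeuT 12-week replicate 1 was the lowest of its group at 10.18, with the next array at 10.45. Ciita in NeuT 12-week replicate 5 was the highest at 9.13, with the next at 8.98. Ciita in NeuT 24-week replicate 2 was the highest at 9.20, with the next at 9.01.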

How the results depend on the processing

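At 12 weeks H2-DMa and Ctss passed in all 10 fits without 1 array (adjusted p up to 0.0473 and 0.0472) and in 11 of 12 other settings, the exception being the monocyte and macrophage covariate, under which 0 members passed. With array weights 4 members passed at 12 weeks, and without 1 array 2 to 4; the 4 were H2-DMa, H2-DMb1, H2-Ob and Ctss. At 24 weeks 0 members passed after a further quantile normalisation, after cyclic loess, with trend and robust variances, in the fit on only the groups compared, with the B-cell or the monocyte and macrophage covariate, and without the 3 arrays of lowest correlation; without 1 array 0 to 2 passed. H2-Ob remained negative at 24 weeks in all 20 alternatives (-0.83 to -0.21) and passed in 7. Between ages in BALB/c mice 2 members passed with array weights and 1 without those 3 arrays. No called member changed sign. Over all members and comparisons the sign differed from the reported one in 29 of 486 values without 1 array. Among values from the other settings it differed in 27 of 531. All of these differences were in results that did not pass. A sign printed for a member that did not pass is that of the reported fit and is not given as a direction of change. No normalisation moved the median of all genes by more than 0.1. No paired analysis was possible because the labels give mouse IDs and no replicate numbers shared between groups. Where a cause is not named, it was not tested. Signals under the 95th percentile of negative controls limit what differences say of transcript levels. This holds for H2-Ab1, H2-Oa, H2-Ob and Ciita in every array, and for H2-DMa and Ctss in all 5 BALB/c arrays of 12 weeks. H2-Eb1 lay above that percentile in 1 of 5 NeuT and 1 of 5 BALB/c arrays of 12 weeks. At 24 weeks it did so in 0 of 4 NeuT and 2 of 4 BALB/c arrays. H2-DMb1 lay above it in all NeuT arrays, but in 1 of 5 BALB/c arrays of 12 weeks and 3 of 4 of 24 weeks. H2-DMa did so at 24 weeks in 3 of 4 NeuT and 1 of 4 BALB/c arrays.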
